A study of Mus musculus with 6 samples.

Results

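Bulk RNA sequencing of mouse gastruloids was used to describe 10 genes at the nuclear end of WNT signalling: *Ctnnb1*, which encodes beta-catenin, the TCF/LEF genes *Tcf7*, *Tcf7l1*, *Tcf7l2* and *Lef1*, and the feedback genes *Axin2*, *Sp5*, *Nkd1*, *Znrf3* and *Rnf43*. They were chosen by name from the pathway, and each of the 10 was found by its Ensembl identifier among the 35565 genes of the count table. Gastruloids are aggregates of mouse embryonic stem cells (ESCs) that elongate and form derivatives of the germ layers in culture. Control (NT) gastruloids came from ESCs with a non-targeting construct, which the sample labels call WT, and KD-1 gastruloids came from a single clone in which the ultraconserved lncRNA *T-UCstem1* was knocked down. All cells derived from the ESC line TBV2 129/SvP, all aggregates received 3 µM CHIR99021 between 48 and 72 h, and all were collected on day 5 (120 h). Because each group is 1 line, the knockdown and any other difference between the lines cannot be told apart. The level of *T-UCstem1* was not analysed here, so the knockdown itself was not checked in these libraries.

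There were 3 libraries per group, described by the submitters as biological replicates. Column names gave the group but could not be tied to a numbered replicate, so libraries are named by depth. Control (NT) libraries held 20982249, 34694406 and 56674906 estimated counts, and KD-1 libraries 41180012, 42407550 and 85561026. The Control (NT) library of middle depth stood apart from its group: its counts differed from those of the other Control (NT) libraries by a chi-square of 36.3 and 36.5 per degree of freedom, against 15.3 between those other libraries and between 4.85 and 11.1 among KD-1 libraries. Some results that rest on it are given with and without it, and others only with it. Levels are CPM, counts scaled to library size with TMM factors, given as mean ± SD over the 3 libraries of a group. Fold changes are those of KD-1 over Control (NT).

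In WNT signalling, a destruction complex built on axin, APC, GSK3 and casein kinase marks beta-catenin for degradation. When WNT binds its receptors, or when GSK3 is inhibited as CHIR99021 does, beta-catenin accumulates, enters the nucleus and joins TCF/LEF proteins on DNA. TCF/LEF proteins recruit Groucho/TLE corepressors when beta-catenin is absent, so they act as switches, and *Tcf7l1* in particular is known as a repressor in ESCs. Targets of the pathway include its own brakes. AXIN2 is a scaffold of the destruction complex, NKD1 binds Dishevelled, ZNRF3 and RNF43 are ubiquitin ligases that remove WNT receptors from the cell surface, and SP5 is a zinc finger factor that competes for sites of related factors. In the early embryo several of these genes mark the primitive streak and the tail bud.

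The promoters of a feedback gene that rose (*Sp5*), of one whose groups overlapped (*Axin2*) and of one that fell (*Nkd1*) are shown to set the results beside the DNA from which they are transcribed. Each window runs from 250 bases before to 50 bases after the first start site of the gene in RefSeq on GRCm38.p6, 5′ to 3′ on the strand of the gene, and capitals mark matches to the TCF/LEF core motif. The windows lie at chr2:70474673-70474972 (plus strand) for *Sp5*, chr11:108920099-108920398 (plus strand) for *Axin2* and chr8:88527383-88527682 (plus strand) for *Nkd1*.
Sp5: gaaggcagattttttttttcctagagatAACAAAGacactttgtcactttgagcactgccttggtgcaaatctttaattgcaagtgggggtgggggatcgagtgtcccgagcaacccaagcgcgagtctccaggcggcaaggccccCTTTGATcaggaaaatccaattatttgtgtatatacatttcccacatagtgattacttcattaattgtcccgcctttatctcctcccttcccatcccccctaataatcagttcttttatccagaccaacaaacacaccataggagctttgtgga
Axin2: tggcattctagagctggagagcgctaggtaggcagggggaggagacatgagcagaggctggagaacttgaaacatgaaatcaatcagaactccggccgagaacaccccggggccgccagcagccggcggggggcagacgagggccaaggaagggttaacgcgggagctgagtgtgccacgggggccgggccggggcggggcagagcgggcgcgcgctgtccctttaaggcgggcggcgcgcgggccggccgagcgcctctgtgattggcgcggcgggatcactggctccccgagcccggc
Nkd1: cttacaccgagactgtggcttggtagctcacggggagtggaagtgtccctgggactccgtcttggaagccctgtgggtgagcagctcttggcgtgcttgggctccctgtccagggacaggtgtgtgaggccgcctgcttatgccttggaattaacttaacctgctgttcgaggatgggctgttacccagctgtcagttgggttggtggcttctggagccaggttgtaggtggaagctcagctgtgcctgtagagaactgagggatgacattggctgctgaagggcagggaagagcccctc
On both strands the search was for CTTTGAA as one form of the core, CTTTGAT as the next form, CTTTGTA as another form and CTTTGTT as the last, and the matches shown do not overlap each other. The *Sp5* window holds CTTTGAT starting 104 bases before the start site and, on the opposite strand, CTTTGTT, whose first base as printed lies 222 bases before it. The *Axin2* and *Nkd1* windows hold none. Windows were found for 9 of the 10 genes, 16 in all, and 3 of the 16 held a match, beside 16.9% of the 32851 windows of all genes. The other matches were in the second window of *Tcf7l2*, which was lower in KD-1 (CTTTGTT, 14 bases before the start site), and in the fourth window of *Lef1* (CTTTGTA on the opposite strand, 147 bases before). The 3 windows shown were picked for the direction of their genes. A match is a string of letters and was not tested as a binding site. *Znrf3* had no entry.

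Of the 10 genes, *Sp5* and *Znrf3* rose and *Nkd1* fell in KD-1 gastruloids past the threshold of the study, a fold change over 1.5 or under 0.667 with an adjusted p under 0.05. Adjusted p-values are from the quasi-likelihood test of edgeR with Benjamini-Hochberg adjustment over the 15110 genes tested. All 10 passed the filter on low counts. The 3 called genes of 10 stood beside 37.7% of all genes tested, of which 19.7% were higher and 18.1% lower. At the adjusted p alone, without a fold threshold, 7 of the 10 passed, 3 higher and 4 lower, beside 63.5% of all genes. Neither count sets the genes apart from the rest of the transcriptome, and their median absolute log2 fold change was 0.47, against 0.49 over all genes tested. The groups did not overlap in 9 of the 10 genes, beside 70.6% of all genes tested, and an exact two-sided permutation test of 3 libraries against 3 cannot go below p = 0.1. Without the middle-depth Control (NT) library 5 of the 10 genes were called, *Tcf7* and *Rnf43* in addition, beside 5796 of 15490 genes tested in that fit. Without the shallowest or deepest Control (NT) or the deepest KD-1 library 2 were called, as *Znrf3* lost its call. Those fits called 6113 of 15477, 5683 of 15409 and 5176 of 15394 genes. The plot of fold changes with their intervals places *Axin2* at the centre and *Nkd1* and *Sp5* at the ends.

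**Figure D1:**
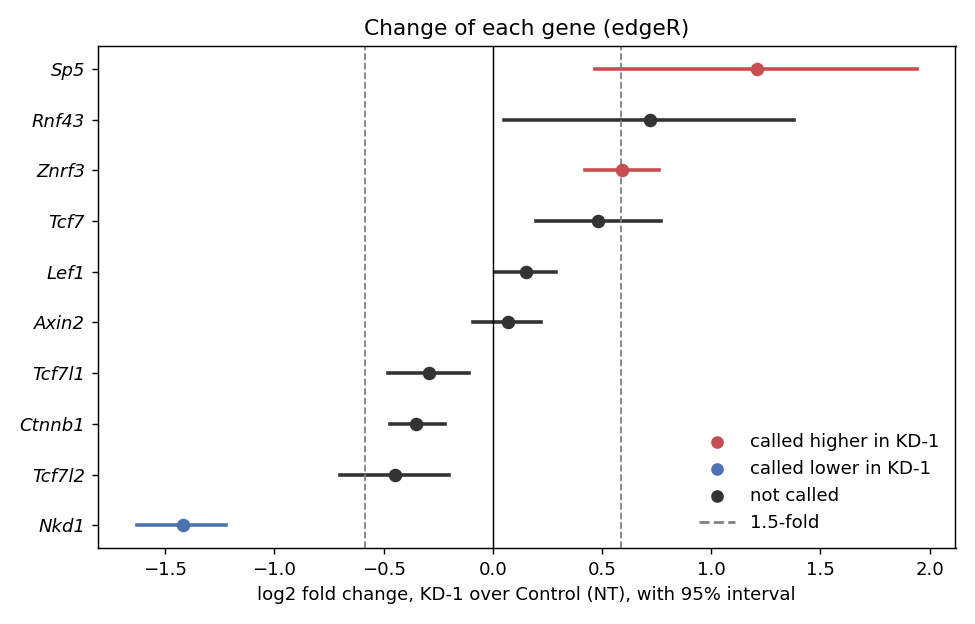
Log2 fold change of each of the 10 genes in KD-1 over Control (NT) gastruloids (x axis), with unadjusted 95% intervals from edgeR as horizontal lines, over 3 libraries per group. Dashed lines mark a 1.5-fold change, and the genes range from *Nkd1* at -1.42 to *Sp5* at 1.21, with *Axin2* at 0.07.

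None of the 10 genes changed direction in any of the 17 other settings tried. Settings that changed only the fold threshold reuse the same fold changes, so they could not show such a change. The sizes of small changes depend on scaling. When libraries were scaled to the sum of counts per kilobase of exon, as TPM values are, the median log2 fold change of all genes tested moved by 0.15, and 64.7% rather than 52.2% of the called genes were higher in KD-1. On that scale 4 of the 10 genes were called higher and 1 lower, against 2 and 1. *Axin2* moved from 0.07 to 0.22 (edgeR adjusted p = 0.026), and *Tcf7l1* from -0.29 to -0.14 (edgeR adjusted p = 0.16). Changes of this size are therefore given relative to the TMM scale only.

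*Ctnnb1* was the most abundant of the 10 by far, in CPM and per kilobase of exon, with a mean CPM above that of 99.0% of the genes tested. It had 971, 912 and 990 CPM in the Control (NT) libraries of lowest, middle and highest depth, and 770, 747 and 743 in the KD-1 libraries in the same order. Every KD-1 library lay below every Control (NT) library. The mean of KD-1 was 78.7% of that of Control (NT), a log2 fold change of -0.35 (SE 0.06, 95% interval -0.47 to -0.22, edgeR adjusted p = 0.00066), which passed the adjusted p but not the 1.5-fold threshold. The gene (ENSMUSG00000006932) lies on chromosome 9 of GRCm39, from 120757422 to 120789579, where its span overlaps *Ulk4* on the other strand. Since the strand setting of the counting is not stated, reads from such overlaps cannot be assigned with certainty. These are levels of mRNA, and CHIR99021 acts on the stability of the protein, which was not measured in these libraries.

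The TCF/LEF genes did not move as one. *Tcf7*, which encodes TCF1, was higher in KD-1, *Tcf7l1* (TCF3 protein) and *Tcf7l2* (TCF4 protein) were lower, and *Lef1* was close to level, each by less than 1.5-fold. *Tcf7* had 20.4, 27.1 and 19.1 CPM in Control (NT) against 32.5, 30.8 and 29.8 in KD-1. The Control (NT) library of middle depth was the highest of its group and still lay below every KD-1 library. The log2 fold change was 0.48 (SE 0.13, edgeR adjusted p = 0.009). Without that library it was 0.65 (edgeR adjusted p = 5.1e-06), past the 1.5-fold threshold.

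*Tcf7l1* had 26.8, 29.6 and 27.5 CPM in Control (NT) against 25.0, 22.0 and 21.5 in KD-1. The groups did not overlap, and the KD-1 library of lowest depth was the one nearest to Control (NT). The log2 fold change was -0.29 (SE 0.08, edgeR adjusted p = 0.013), and it missed the adjusted p without the KD-1 library of middle (0.072) or highest depth (0.081). *Tcf7l2*, the least abundant of the family also per kilobase, had 10.9, 12.8 and 10.5 CPM in Control (NT) against 8.90, 8.02 and 8.06 in KD-1. All KD-1 libraries were below all Control (NT) libraries, a log2 fold change of -0.45 (SE 0.11, edgeR adjusted p = 0.0067). *Lef1*, whose product is a strong activator with beta-catenin, had 35.7, 37.4 and 35.2 CPM in Control (NT) against 40.0, 40.6 and 39.5 in KD-1. The groups stood apart by a small step, a log2 fold change of 0.15 (SE 0.06, 95% interval 0.01 to 0.29), which missed the adjusted p (0.057). It passed it without the middle-depth Control (NT) library (0.016), and also with DESeq2 (0.028), limma-voom (0.049), RLE factors (0.033), library size alone (0.016), a minimum of 10 counts in every library (0.019) and the scaling per kilobase (0.0036). *Tcf7*, *Tcf7l2* and *Lef1* are known to give rise to shorter proteins without the beta-catenin binding domain, and gene counts cannot separate these from the full-length forms.

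Set against each other within each library, where scaling between libraries cancels, the ratios of *Tcf7* to each of the other TCF/LEF genes were higher in every KD-1 library than in any Control (NT) library. The log2 ratio of *Tcf7* to *Tcf7l1*, in CPM per kilobase of exon, was 0.05, 0.32 and -0.08 in Control (NT) against 0.82, 0.93 and 0.91 in KD-1. By this length *Tcf7* and *Tcf7l1* were near parity in Control (NT), and *Tcf7* was ahead in every KD-1 library. By the longest transcript the log2 ratios were -0.48, -0.21 and -0.62 against 0.29, 0.40 and 0.38, so that *Tcf7* was behind in every Control (NT) library. The ratio was 1.73-fold higher in KD-1, a difference of 0.79 on the log2 scale. The largest difference of the 6 pairs was that of *Tcf7* over *Tcf7l2*, from 2.18 ± 0.12 to 3.12 ± 0.04 (SD, n = 3 each), a difference of 0.94. *Tcf7l2* over *Lef1* differed by -0.59, *Tcf7l1* over *Lef1* by -0.44 and *Tcf7* over *Lef1* by 0.35. The smallest was *Tcf7l1* over *Tcf7l2*, 2.08 ± 0.09 and 2.24 ± 0.04 (SD), a difference of 0.15. Without the middle-depth Control (NT) library, *Tcf7* over *Tcf7l1* differed by 0.9, over *Tcf7l2* by 1.01 and over *Lef1* by 0.47. In each of the 6 pairs the groups did not overlap. The share among all gene pairs was not computed, but 70.6% of single genes tested did not overlap. The TCF/LEF genes were each among these, and the 6 ratios share genes, so they are not 6 separate results. The exact two-sided permutation test gave p = 0.1 for each pair, the smallest possible with 3 against 3. After Benjamini-Hochberg adjustment over the 6 pairs it was 0.1, so that none could pass 0.05 by this test.

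As shares of the summed level of the family per kilobase of exon, *Tcf7* took 35.3% ± 3.19 in Control (NT) against 45.7% ± 0.126 in KD-1 (SD, n = 3 each). *Tcf7l1* took 33.1%, 31.2% and 34.7% in Control (NT) against 25.9%, 24.1% and 24.2% in KD-1. *Tcf7l2* took 7.78% ± 0.0809 and 5.25% ± 0.119. The share of *Lef1* was 23.8% ± 1.57 and 24.3% ± 1.05, and its groups overlapped. The sum of the family was 16.3 ± 1.64 and 17.7 ± 0.784 CPM per kilobase, also with overlap (exact two-sided permutation test, n = 3 per group, p = 0.3). That overlap of the sums came only from the middle-depth Control (NT) library, at 18.2. The shallowest and deepest Control (NT) libraries, at 15.5 and 15.2, lay below every KD-1 library. The same held for the sums by the longest transcript. Shares depend on the length assigned to each gene. With the longest annotated transcript in place of all exons, *Lef1* had the largest share in both groups (36.8% and 38.9%), ahead of *Tcf7* (22.6% and 30.3%), while the differences of the log2 ratios stay the same by construction.

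**Figure D2:**
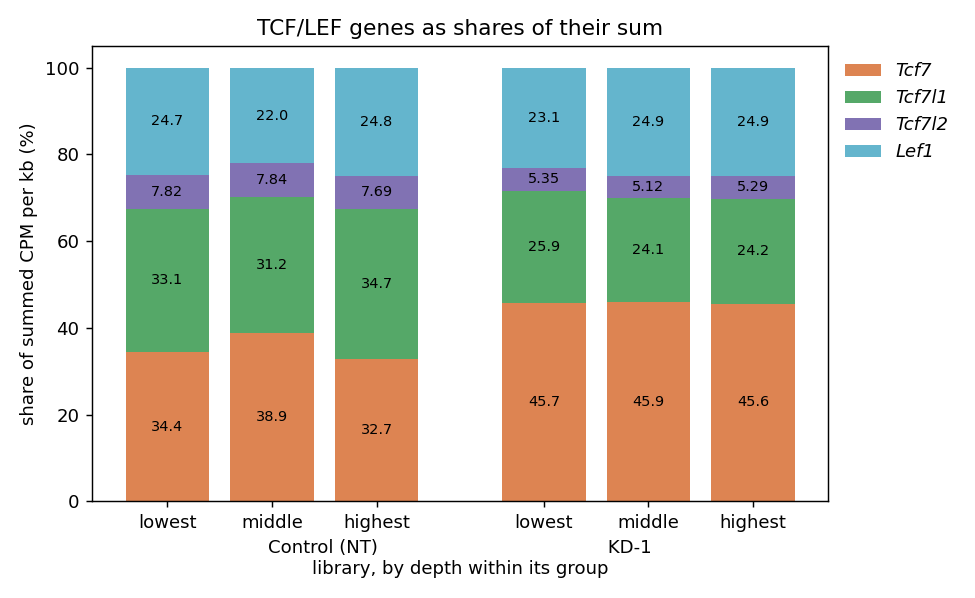
Shares of *Tcf7*, *Tcf7l1*, *Tcf7l2* and *Lef1* in the summed CPM per kilobase of exon of the 4 genes (y axis, percent), 1 bar per library in order of depth within its group. *Tcf7* takes between 32.7% and 38.9% of the Control (NT) bars and between 45.6% and 45.9% of the KD-1 bars.

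Among the feedback genes, *Axin2*, the commonest readout of WNT activity, was nearly level between the groups. It had 22.5, 21.8 and 20.8 CPM in Control (NT) against 23.0, 22.6 and 22.5 in KD-1, and the groups overlapped. KD-1 differed by 0.07 on the log2 scale (SE 0.07, edgeR adjusted p = 0.42), with a 95% interval of -0.09 to 0.22 that leaves out a 1.5-fold change in either direction. With each library left out in turn it lay between 0.03 and 0.09. The gene (ENSMUSG00000000142) lies on chromosome 11 of GRCm39, from 108811169 to 108841609.

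*Nkd1* was the only gene of the 10 called lower. It had 16.9, 17.3 and 18.8 CPM in Control (NT) against 6.85, 6.71 and 6.31 in KD-1. The spread within each group was small beside the gap, and KD-1 held 37.5% of the level of Control (NT). The log2 fold change was -1.42 (SE 0.09, edgeR adjusted p = 2.8e-06), and *Nkd1* (ENSMUSG00000031661, chromosome 8 of GRCm39, from 89247890 to 89324577) was called lower in every setting tried. Its paralog *Nkd2* fell as well, from 11.2 ± 2.78 to 3.03 ± 0.0965 CPM (SD, n = 3 each), or a log2 change of -1.88 (edgeR adjusted p = 3.1e-05).

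*Sp5* moved the other way. Its counts were 10, 43 and 60 in Control (NT) against 117, 81 and 190 in KD-1, which is 0.482, 1.27 and 1.08 CPM against 2.79, 1.86 and 2.19. All KD-1 libraries lay above all Control (NT) libraries, and the lowest value came from the shallowest library. The log2 fold change was 1.21 (SE 0.32, 95% interval 0.47 to 1.94, edgeR adjusted p = 0.0099), or 0.96 without that library (edgeR adjusted p = 0.012). The gene (ENSMUSG00000075304) lies on chromosome 2 of GRCm39, from 70305267 to 70308073. Its relative *Sp8*, a factor of the tail bud and limb, rose from 15.2 ± 0.437 to 25.1 ± 1.21 CPM (SD, n = 3 each; log2 fold change 0.72, edgeR adjusted p = 4.6e-05).

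The receptor ligase gene *Znrf3* had 23.8, 26.1 and 22.5 CPM in Control (NT) against 36.3, 35.1 and 37.3 in KD-1. The groups stood well apart, with a log2 fold change of 0.59 (SE 0.08, edgeR adjusted p = 0.00018). Its 1.5-fold change lies on the threshold, and *Znrf3* kept its call in 3 of the 6 fits with a library removed. It lost it with upper-quartile normalization (0.58 on the log2 scale), without the shallowest (0.58) or the deepest Control (NT) library (0.54) and without the deepest KD-1 library (0.58). The paralog *Rnf43* was scarce, counted 14, 47 and 82 times in Control (NT) against 76, 79 and 208 times in KD-1, or 0.675, 1.39 and 1.48 CPM against 1.81, 1.82 and 2.39. The KD-1 libraries were again the higher ones. The log2 fold change of 0.72 (SE 0.29) missed the adjusted p (0.057) and moved from 0.49 without the shallowest Control (NT) library to 0.91 without the deepest. *Znrf3*, *Rnf43*, *Axin2* and *Tcf7*, 4 of the 10 genes, lie on chromosome 11, where 34.9% of 1156 tested genes were called.

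**Figure D3:**
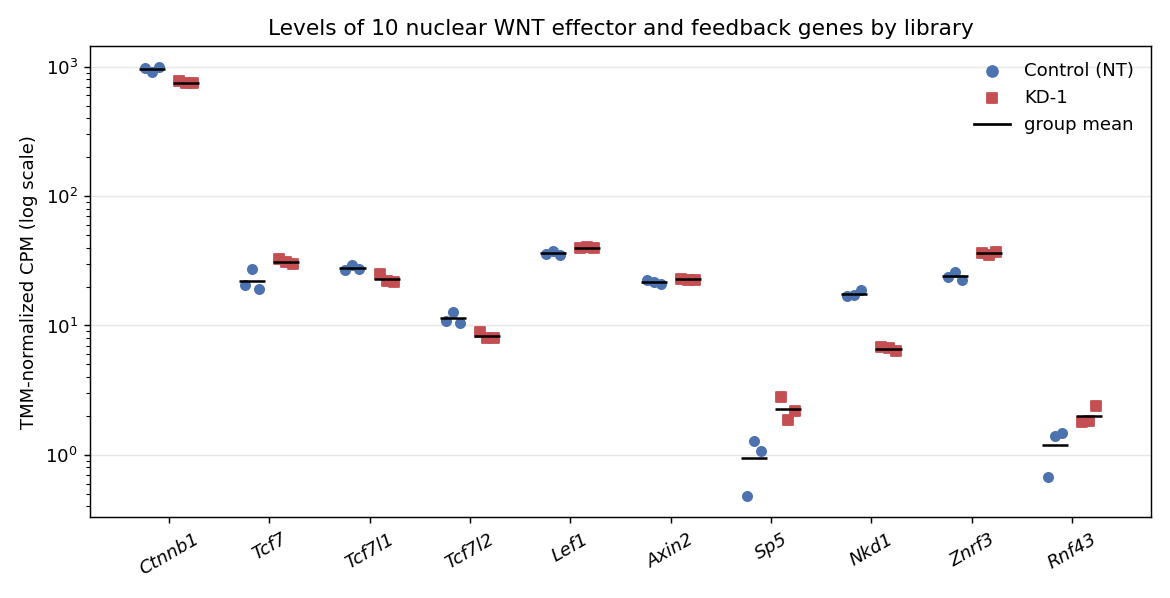
TMM-normalized CPM of the 10 genes (y axis, log scale) in each of 3 Control (NT) libraries (circles) and 3 KD-1 libraries (squares), in order of depth from left to right, with the group mean as a line. The levels span from *Ctnnb1* at 958 CPM to *Sp5* at 0.946 CPM in Control (NT), and of the 10 genes *Axin2* is the one whose groups overlap.

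Per kilobase of exon, *Ctnnb1* stood first in Control (NT), at 117 ± 4.95 CPM per kilobase, far above *Tcf7* (5.79 ± 1.12), *Tcf7l1* (5.36 ± 0.28), *Lef1* (3.86 ± 0.123), *Axin2* (3.13 ± 0.125) and *Znrf3* (3.01 ± 0.224). *Nkd1* (2.14 ± 0.119), *Tcf7l2* (1.27 ± 0.138), *Sp5* (0.444 ± 0.194) and *Rnf43* (0.18 ± 0.0672) followed. The libraries of *Tcf7* and *Tcf7l1* overlapped, as did those of *Axin2* and *Znrf3*. In KD-1 the order was *Ctnnb1*, *Tcf7*, *Znrf3*, *Tcf7l1*, *Lef1*, *Axin2*, *Sp5*, *Tcf7l2*, *Nkd1* and *Rnf43*. The libraries of *Znrf3* and *Tcf7l1* overlapped there, as did those of *Tcf7l1* and *Lef1* and those of *Sp5* and *Tcf7l2*. The order is sensitive to length, since only 4 of the 10 genes kept their place in Control (NT) with the longest transcript as the length, *Lef1* then standing second. The moves between the groups depend on it as well: *Znrf3* went from the sixth to the third place by all exons but held the fifth place in both groups by the longest transcript, and *Nkd1* went from the seventh to the ninth place by all exons and from the eighth to the ninth by the longest transcript.

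Around these genes, 4 further lists of the pathway were described, 59 tested genes in all, with 9 calls higher and 18 lower (45.8%, beside 37.7% of all genes tested) with a median log2 fold change of 0.05. The lists went both ways, and the plot of their fold changes shows the cofactors and targets spread more widely than the destruction complex. Of the 15 tested genes of the destruction complex, 2 were called, both higher, beside 37.7% of all genes tested. At the adjusted p alone 4 were higher and 5 lower, beside 63.5% of all genes tested. The lower ones were *Gsk3a* (log2 fold change -0.53), *Csnk1e* (-0.50), *Csnk1d* (-0.42), *Btrc* (-0.26) and *Axin1*, each short of 1.5-fold. The higher ones short of 1.5-fold were *Amer1* (0.57, edgeR adjusted p = 0.0041) and *Csnk1a1* (0.46, edgeR adjusted p = 0.00021). The tankyrase gene *Tnks2*, whose product marks axin for degradation, rose from 330 ± 18.6 to 502 ± 9.03 CPM (SD, n = 3 each), or a log2 change of 0.61 (edgeR adjusted p = 3.6e-05). *Amer2*, which encodes an APC-binding membrane protein, had a log2 fold change of 0.60 (edgeR adjusted p = 0.011). Both calls were lost when the middle-depth Control (NT) library was removed (0.57 for *Tnks2* and 0.46 for *Amer2*), and that of *Amer2* also without the deepest Control (NT) library (0.55) or the shallowest KD-1 library (0.57). *Axin1*, the paralog of *Axin2*, had 56.1 ± 3.99 and 48.5 ± 0.61 CPM, a log2 fold change of -0.21 (edgeR adjusted p = 0.022), short of 1.5-fold. The median of the list was 0.11.

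Among the 23 cofactors of beta-catenin and TCF, 2 were called higher and 8 lower, with a median of 0.01. Of all genes tested, 19.7% were called higher and 18.1% lower. *Bcl9* and *Bcl9l*, which encode adaptors that link beta-catenin to Pygopus, both fell, *Bcl9* from 76.5 ± 2.34 to 38.8 ± 1.33 CPM (log2 fold change -0.98, edgeR adjusted p = 2.4e-06) and *Bcl9l* from 8.84 ± 0.998 to 3.14 ± 0.377 (-1.5, edgeR adjusted p = 3.3e-05). Genes of the Groucho/TLE family, some of which encode corepressors that bind TCF/LEF proteins in place of beta-catenin, went both ways. *Tle4* had 80.1, 79.7 and 73.8 CPM in Control (NT) against 132, 130 and 129 in KD-1, with no overlap, a log2 fold change of 0.75 (edgeR adjusted p = 7.8e-06). *Tle3* fell from 64.5 ± 5.81 to 42.1 ± 3.54 CPM (-0.61, edgeR adjusted p = 0.00034), a call near the 1.5-fold line that was lost in 8 of the 17 other settings, among them the fits without the middle-depth Control (NT) library (-0.54) and without the middle (-0.58) or deepest KD-1 library (-0.56). *Tle5*, which encodes a short member of the family, fell from 9.27 ± 1.45 to 5.10 ± 0.649 (-0.87, edgeR adjusted p = 0.001). *Tle6* fell from 3.00 ± 0.179 to 0.97 ± 0.0173 CPM (-1.62, edgeR adjusted p = 8.4e-05), and *Tle2*, counted 21, 25 and 57 times in Control (NT) against 4, 1 and 11 times in KD-1, had the largest fall of the list (-3.35, edgeR adjusted p = 0.00046). *Tle1* (0.29, edgeR adjusted p = 0.006) was short of 1.5-fold. *Cdc73*, which encodes a subunit of the PAF1 elongation complex, had the largest rise, from 78.7 ± 9.36 to 204 ± 8.20 CPM (1.37, edgeR adjusted p = 2.8e-06).

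Other feedback and target genes of WNT also divided, with 5 of 17 tested genes called higher and 8 lower and a median of -0.31. The shares over all genes tested were 19.7% higher and 18.1% lower. *Notum*, which encodes a secreted enzyme that inactivates WNT ligands, had 3.42, 5.36 and 3.88 CPM in Control (NT) against 22.5, 23.0 and 20.5 in KD-1. All KD-1 libraries were far above Control (NT), a log2 fold change of 2.37 (edgeR adjusted p = 2.9e-06). *Cd44*, which encodes an adhesion receptor, rose from 0.28 ± 0.0924 to 1.62 ± 0.371 CPM (2.60, edgeR adjusted p = 0.00026). The largest falls were those of *Cdx1*, a caudal homeobox gene, from 5.56 ± 0.579 to 0.306 ± 0.0765 CPM (-4.22, edgeR adjusted p = 1.1e-06), and of *Myc*, from 32.4 ± 8.07 to 6.37 ± 0.389 CPM (-2.35, edgeR adjusted p = 5.9e-06). *T*, the Brachyury gene of the primitive streak, had 5.21, 8.64 and 6.21 CPM in Control (NT) against 5.84, 5.03 and 5.38 in KD-1, and the groups overlapped (-0.31, edgeR adjusted p = 0.17). The fold change of *T* leans on the middle-depth Control (NT) library, the highest at 8.64, and is given only with it. *Dkk1* was scarce, counted 1, 11 and 16 times in Control (NT) against 11, 15 and 30 times in KD-1. Its groups overlapped (0.40, edgeR adjusted p = 0.53), and it was not called.

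R-spondins bind LGR receptors and clear ZNRF3 and RNF43 from the membrane, which raises the response to WNT. Of 5 tested genes of this list, 1 was called higher and 2 lower, beside 19.7% and 18.1% of all genes tested, with a median of 0.46. *Rspo3* fell from 12.1 ± 1.80 to 4.71 ± 0.64 CPM (log2 fold change -1.36, edgeR adjusted p = 7.1e-05) and *Rspo1* from 4.26 ± 1.69 to 1.37 ± 0.156 (-1.65, edgeR adjusted p = 0.00091). *Lgr5* rose from 1.23 ± 0.244 to 2.07 ± 0.113 CPM (0.76, edgeR adjusted p = 0.014), a call that was lost without the KD-1 library of highest depth. *Lgr4* had 68.9 ± 4.40 and 94.3 ± 1.13 CPM (0.46, edgeR adjusted p = 0.00025), short of 1.5-fold.

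**Figure D4:**
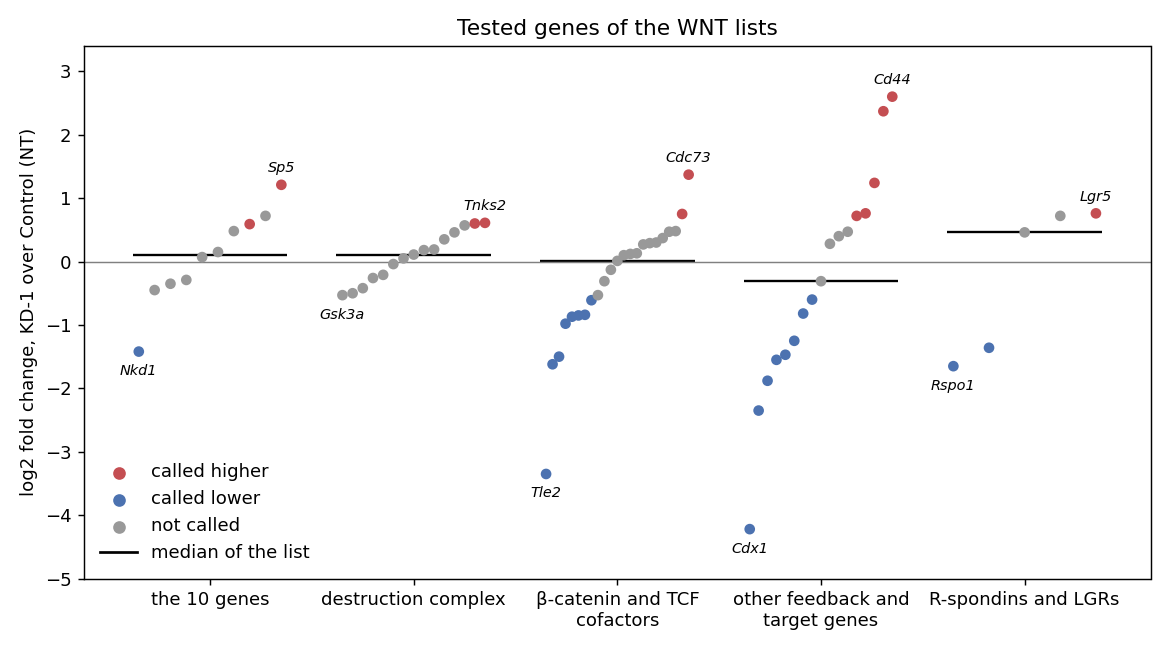
Log2 fold change in KD-1 over Control (NT) (y axis) of each tested gene of the 10 described genes and of 4 further lists of the WNT pathway, 1 point per gene, coloured by its call, with the median of each list as a line. The destruction complex, with a median of 0.11, reaches from *Gsk3a* at -0.53 to *Tnks2* at 0.61. The target genes reach from *Cdx1* at -4.22 to *Cd44* at 2.60.

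Markers of cell types moved with the groups, and their part in the values of the WNT genes was not tested. In bulk libraries fewer cells of a type and less RNA per cell cannot be told apart. Beside the calls of the marker lists, 19.7% of all genes tested were called higher and 18.1% lower. All 6 somite markers were called lower in KD-1, and their summed level was 480, 542 and 504 CPM in Control (NT) against 45.1, 44.9 and 45.5 in KD-1. *Meox1*, the most abundant of them, had 354, 388 and 372 CPM against 0.453, 0.391 and 0.426. Presomitic mesoderm markers, led by *Dll1*, summed to 46.9, 55.6 and 49.8 CPM against 36.0, 37.7 and 38.1, with 4 of 5 tested genes lower and 1 of the 6 at 0 in KD-1. That last gene, *Msgn1*, was not tested and had only 0, 0 and 3 counts in Control (NT). The list is not separate from the WNT lists, since *Rspo3* is also in the R-spondin list and *Tbx6* and *Msgn1* are also among the WNT targets.

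Markers of naive pluripotency, led by *Tfcp2l1*, summed to 469, 421 and 462 CPM in Control (NT) against 1410, 1380 and 1410 in KD-1, with 6 of 7 tested genes higher. Formative and primed markers, led by *Dnmt3b*, summed to 56.5, 59.6 and 61.2 CPM against 145, 137 and 141, with 4 of 5 higher. Neural markers, of which *Tubb3* was the most abundant, summed to 34.8, 37.9 and 34.2 CPM against 132, 134 and 132, with 3 of 4 tested genes higher. Markers of the caudal epiblast and neuromesodermal progenitors, led by *Nkx1-2*, summed to 66.7, 72.2 and 66.4 CPM against 78.4, 77.6 and 75.0, with 2 of 7 higher and 2 lower. That list shares *T*, *Cdx2*, *Cdx4* and *Sp8* with the WNT targets.

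The remaining lists rested on few genes. Definitive endoderm markers summed to 133, 157 and 148 CPM in Control (NT) against 260, 266 and 269 in KD-1, nearly all of it *Trh*, while *Cer1* and *Foxa1* fell. Endothelial markers, mostly *Pecam1*, summed to 17.7, 16.7 and 18.0 CPM against 30.6, 29.9 and 32.1, with 1 of 3 tested genes higher and 2 lower. Cardiac markers, led by *Tnnt2*, summed to 4.68, 5.92 and 5.96 CPM against 0.596, 0.782 and 0.564, with both tested genes lower and 1 of the 5 at 0 in KD-1. That last gene, *Nkx2-5*, was not tested and had only 1, 0 and 3 counts in Control (NT). Markers of fibroblasts, such as feeder cells, summed to 8.34, 8.88 and 9.15 CPM against 1.0, 0.988 and 0.817, with 3 of 4 tested genes lower and 2 of the 7 at 0 in KD-1. *Col3a1*, the most abundant of them, had 5.06, 5.68 and 5.56 CPM against 0.119, 0.0919 and 0.15.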

How the data were processed

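Paired-end libraries were quantified by the authors with Salmon (version 1.1, per the submitters' processing notes) and deposited as 1 table of estimated counts per gene. The deposited counts, summed to 20982249 to 85561026 per library, were rounded to whole numbers. A level of 3 counts corresponds to 0.145 CPM in the shallowest and 0.0345 CPM in the deepest library, for counting error only. Identifiers were matched to GENCODE vM39 (GRCm39; 35222 of 35565). Counts were tested in R 4.3.3 with edgeR 4.0.16 (TMM, filterByExpr, robust quasi-likelihood test), with DESeq2 1.42.0 and limma-voom 3.58.1 as alternatives, and the code was tested on simulated data. Intervals are unadjusted. P-values measure the spread between libraries of 1 line per group. Levels between genes are CPM per kilobase of exon, used in place of a TPM-like scale after the values were seen, because that scale shifts all genes. Genes named from lists have the 2 largest called rises or falls of their list, or are a paralog, ligand or receptor of one of the 10 genes. *T*, *Dkk1*, *Bcl9*, *Bcl9l*, *Tle1*, *Tle3*, *Tle5* and the destruction complex genes passing the adjusted p alone fall outside this rule and were named after their values were seen. Marker genes are named as the most abundant of their list by CPM, as called, as shared with a WNT list, or as at 0 in KD-1. The 10 genes and the lists were chosen with earlier results of these data known. Promoter windows are from RefSeq.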

Additional observations from a re-analysis of the deposited data

How the results depend on the processing

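Across 17 other settings, 153 of the 170 values of the 10 genes kept their call, 5 lost it, 12 gained it and 0 changed direction. Settings that changed only the fold threshold could not change a direction. With no fold threshold 7 of the 10 genes were called, and 5 were called when libraries were scaled to the sum of counts per kilobase, an alternative chosen after seeing the data. With 1 library left out the number ranged from 2 to 5, with 5 when the middle-depth Control (NT) library was removed and 2, without *Znrf3*, when the shallowest or deepest Control (NT) or the deepest KD-1 library was left out. *Znrf3* also lost its call with upper-quartile normalization and with an absolute log2 fold change over 1. *Lef1* passed the adjusted p in 7 settings without reaching 1.5-fold. *Rnf43* was also called with limma-voom, RLE factors, library size alone or a minimum of 10 counts in every library. Genes of the destruction complex called higher numbered 4 with DESeq2, 4 with the scaling per kilobase and 0 to 3 with 1 library left out, and those called lower 0 to 1. On the scaling per kilobase 4 cofactors were called higher. Of the R-spondin and LGR genes, 2 were called higher with no filter on low counts, 2 with the scaling per kilobase and 0 to 1 with 1 library left out. With the longest transcript as the length, 4 of the 10 genes kept their rank. Over all genes tested 5704 were called, 3274 with an absolute log2 fold change over 1 and 9597 with no fold threshold. Depth limits *Sp5* and *Rnf43*, which had 10 and 14 counts in the shallowest library. No paired analysis was made, because the suffixes of the count columns could not be tied to the numbered replicates of the samples.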

Other observations

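Genes whose levels followed those of *Axin2* most closely were listed as a description. Over the 6 libraries, 60 of 12926 genes with a mean of at least 1 CPM had a Pearson r over 0.9 with *Axin2* on the log2 CPM scale. The highest were *Arl8b* (r = 0.977), *Vmn2r3* (0.971), *Vmn2r59* (0.969), *Ugcg* (0.968) and *Rmi2* (0.964). The *Vmn2r* genes belong to a large family of similar receptor genes, so that their counts are uncertain. The points share libraries and depth, and the groups differ little in *Axin2*. With only 6 points, unrelated genes can also reach a high r, and how many would do so here was not worked out. The count and the names therefore show no link to *Axin2*.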
